A study of Mus musculus with 6 samples.

Results

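Aire, the autoimmune regulator gene, was followed in mouse inner ear organoids grown with a MEK inhibitor or with its solvent. It is 1 of the 4994 genes in the authors' deposited expression table, found there by its symbol in a single row. It was chosen because it combined a high level in DMSO organoids with 1 of the largest falls in PD organoids, so its difference between the groups is described here without a test. Aire encodes a nuclear protein best known from the medullary epithelium of the thymus, where it lets epithelial cells transcribe genes that otherwise belong to other organs. Developing T cells that recognise those products are then removed or diverted, and loss of the gene causes autoimmune disease. In those thymic cells the gene is switched on by receptors of the TNF family acting through NF-kB, and the protein carries SAND and PHD domains, which contact DNA and histones. A role of Aire in the inner ear is not part of that background.

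Bulk RNA-seq was made from 6 wild-type samples labelled as epithelial cells of inner ear organoids. The PD group (n = 3) received PD0325901, which blocks the MEK1 and MEK2 kinases, at 1 µM for 10 days. The DMSO group (n = 3, columns named Control) received an equal volume of solvent for the same time. All 6 cultures contained IGF at 50 ng/mL, EGF at 20 ng/mL and bFGF at 10 ng/mL, which are growth factors, together with the GSK3 inhibitor CHIR99021 (3 µM). The submitters' aim was the route by which the inhibitor might favour hair cells. Whether the samples of a group came from separate cultures is not stated, so p-values reflect the spread among these samples alone, and that spread may be technical. In bulk samples fewer cells that express a gene and less RNA per cell cannot be told apart. The labelled epithelial identity was checked with Epcam, an epithelial adhesion molecule gene, which averaged 514 ± 15.7 in PD organoids and 836 ± 31.7 in DMSO organoids (SD, n = 3 each), and with Oc90, the gene of the otoconial protein otoconin, which averaged 191 ± 34.7 in PD organoids and 117 ± 4.70 in DMSO organoids (SD, n = 3 each).

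Values are a normalized signal whose unit the table does not name. The smallest nonzero value in a sample was 0.06 to 0.24 among genes with 500 to 1000 bases of exon and 0.01 to 0.02 among genes with 5000 to 8000 bases, the behaviour of values divided by gene length. Read counts cannot be taken from this signal, so depth is unknown. Signal summed over the listed genes was 290560 to 296997 in the PD libraries and 289255 to 293278 in the DMSO libraries. In the authors' deposited table every gene differs at least 1.5-fold, up or down, and the highest adjusted p is 0.0499, so the table is itself a selection made on these samples, and calls within it are not independent evidence.

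The Aire gene (ENSMUSG00000000731) lies on the minus strand of chromosome 10 at 78030022 to 78043610 on GRCm38, the assembly also called mm10. GENCODE M21 gives it 16 transcripts, 11 of them protein coding, with up to 15 exons and 3825 bases of exon in all. Its first 1664 bases overlap Dnmt3l, a cofactor gene of DNA methylation in germ cells, which runs on the opposite strand. Only 67 bases of Aire exon, 1.75% of the total, are also exon of Dnmt3l. The library kit was stranded, but whether strand was used in counting is not given in the sources used here, so reads on those bases cannot be assigned to either gene. Dnmt3l is not analysed here. A search for copies found 0 transcripts of other genes that matched an Aire transcript at 95% identity or more over at least 80% of its length, and the longest alignment covered 133 bases at 82.7% identity.

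The window around the Aire start site is shown because it lies within the body of Dnmt3l: all 300 bases are inside that gene and 0 of them in its exons. It spans 250 bases before the start site to 50 bases after it, taken from RefSeq at chr10:78043561-78043860 on GRCm38.p6, minus strand, and is written 5′ to 3′ along Aire. Capitals mark a TATAAA match and a CCAAT match on the reverse strand (ATTGG).
Aire promoter: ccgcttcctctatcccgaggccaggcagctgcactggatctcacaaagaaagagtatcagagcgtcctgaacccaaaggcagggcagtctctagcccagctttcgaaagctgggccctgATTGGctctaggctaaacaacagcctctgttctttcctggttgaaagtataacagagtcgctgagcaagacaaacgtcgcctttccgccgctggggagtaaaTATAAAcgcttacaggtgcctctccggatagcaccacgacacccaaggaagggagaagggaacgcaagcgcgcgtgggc
With the first transcribed base counted as 0, the TATAAA match runs from -29 to -24 and the CCAAT match from -131 to -127. TATAAA was found on either strand in 13.6% of the 32851 promoter windows of the same length, and CCAAT in 37.4%. Searches on both strands for CCGGAAGT, an ETS factor motif present in 3.89% of windows, and for ACGTG, a form of the hypoxia response core present in 19.6%, gave 0 matches in the Aire window. GCGTG, the other form of that core, had 1 match from 42 to 46 after the start and was present in 32.4% of windows. The window is 55.3% G or C and holds 16 CpG dinucleotides. These matches describe letters and say nothing of whether a factor binds there.

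Aire was nearly lost from the PD organoids. Its signal was 2.32, 4.13 and 1.05 in PD replicates 1, 2 and 3, against 104.36, 120.47 and 118.21 in DMSO replicates 1, 2 and 3. The lowest DMSO sample stood 25.3 times above the highest PD sample, so the groups did not overlap. Groups failed to overlap with PD lower in 50.6% of listed genes and in either direction in 95.2%, and nothing is read from that, because the gene was chosen on this contrast.

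**Figure D1:**
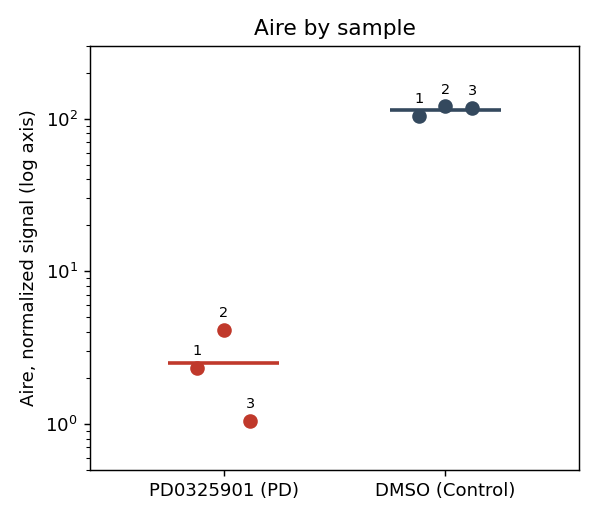
Aire signal in each sample on a log axis, with PD0325901 samples on the left and DMSO samples on the right; numbers are replicates and bars are group means (n = 3 each). The PD samples sit between 1.05 and 4.13 and the DMSO samples between 104.36 and 120.47.

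Aire averaged 2.5 ± 1.55 in PD organoids and 114 ± 8.72 in DMSO organoids (SD, n = 3 each). The ratio of the PD mean to the DMSO mean was 0.0219, so the DMSO mean was 45.7 times the PD mean. On log2(signal + 1) the difference was -5.14, a scale that understates the change of a gene whose level comes near 1. The authors' deposited table gives a fold of 0.024 and a log2 fold of -5.37. Signal of Aire exceeded that of 31.6% of listed genes by the PD means and that of 94.4% by the DMSO means.

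The spread of Aire was uneven between the groups. Among PD samples the highest value was 3.93 times the lowest, and the SD on the log2 scale was 0.66. Among DMSO samples the highest was 1.15 times the lowest, with an SD of 0.11 on the same scale. The PD spread was wider than in most listed genes of that level: of 1264 listed genes with a PD mean of 1 to 5 and no PD value of 0, 96.8% had a smaller ratio of highest to lowest PD sample, and their median ratio was 1.42. The authors' cut on fold and adjusted p leaves out many genes with a wide PD spread unless their fold is large. Leaving out genes with a PD value of 0 acts the same way. The share therefore describes these selected genes and does not mark Aire as unusually variable. Leaving out 1 sample at a time gave log2 differences from -5.46, without PD replicate 2, to -4.80, without PD replicate 3.

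PD replicate 2 held the most Aire and PD replicate 3 the least. That ordering of the PD libraries, examined after the values were seen, occurred in 14 of 26 hypoxia-inducible genes (53.8%), in 480 of the 2550 genes called lower (18.8%) and in 0 of 14 feedback genes of ERK signalling. Calls here and below are those of limma on log2(signal + 1) at a Benjamini-Hochberg adjusted p under 0.05. Ndrg1, Mgarp and Eno2, the hypoxia-inducible genes among those most like Aire below, did not have that order and were highest in PD replicate 1. Genes of a list were read in the same 3 libraries and are not separate observations. With 3 libraries in the group, the ordering is a description of which libraries were high, and it has no test.

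By the log2 difference Aire ranked 2 among the 2658 listed genes that were lower in PD organoids. Ndrg1, a hypoxia- and stress-inducible gene, ranked 1 at -5.44, with 3.88, 3.83 and 3.40 in PD organoids and 160.19, 232.91 and 222.67 in DMSO organoids. Just behind Aire came Mgarp, which encodes a mitochondrial protein induced by hypoxia, at -4.96, and Exoc3l4 at -4.86. The order depends on how low levels are treated. By the ratio of means, which weights genes near 0 more, Aire ranked 74, and with a pseudocount of 0.1 in place of 1 its log2 difference ranked 15. Among the 315 genes with a DMSO mean of at least 100, a limit set after the values were seen, Aire had the second largest ratio of the DMSO mean to the PD mean. Ndrg1 led these at 55.4, Aire followed at 45.7, and Car9, a carbonic anhydrase gene, came next at 20.8.

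**Figure D2:**
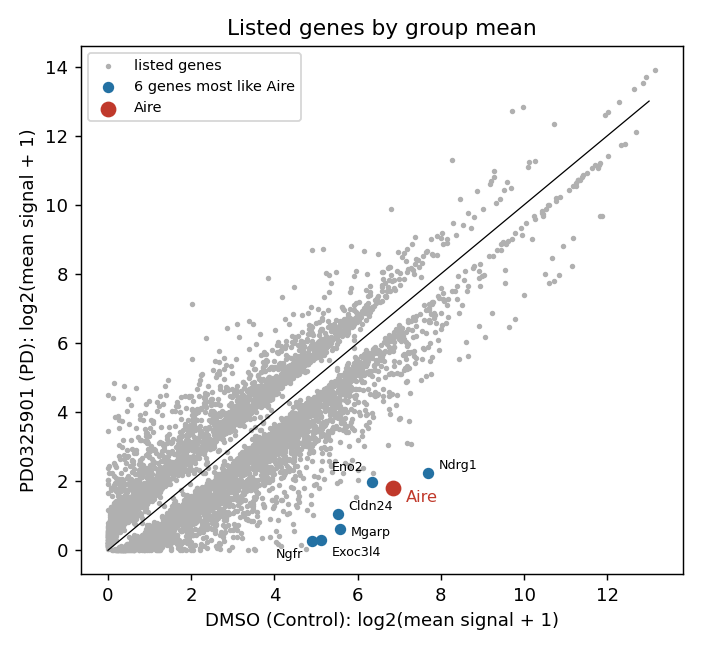
Each point is 1 of the 4994 listed genes, with log2(mean signal + 1) in PD organoids on the vertical axis and in DMSO organoids on the horizontal axis (n = 3 each); the line marks equal levels. The empty band along the line reflects the authors' selection of genes with a fold of at least 1.5, and Aire lies at the lower right edge beside Ndrg1, at a PD mean of 2.5 and a DMSO mean of 114.

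Likeness to Aire was measured as the root mean square difference between profiles of log2(signal + 1) over the 6 samples, each profile centred on its own mean, so a smaller value is more alike. Over 3025 named genes that averaged 5 or more in either group the median was 2.34, and over those called lower it was 2.11. The closest gene was Cldn24, a gene of the claudin family of tight junction proteins, at 0.29; reads shared with other claudin genes were not tested. Its signal was 0.95, 2.27 and 0 in PD organoids, against 38.37, 49.38 and 46.66 in DMSO organoids. Like Aire, and like Ngfr below, it was highest in PD replicate 2 and lowest in PD replicate 3.

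The other genes of the 6 closest were Mgarp at 0.32, Ndrg1 and Ngfr at 0.39 each, Eno2 at 0.43 and Exoc3l4 at 0.46. Ngfr, which encodes the p75 neurotrophin receptor, averaged 0.193 ± 0.121 in PD organoids and 28.7 ± 1.5 in DMSO organoids (SD, n = 3 each). Eno2, which encodes an enolase of glycolysis, averaged 2.94 ± 1.08 in PD organoids and 80.8 ± 13.9 in DMSO organoids (SD, n = 3 each). Mgarp, Ndrg1 and Eno2 belong to the list of hypoxia-inducible genes. All of these profiles are dominated by the difference between the groups, and with pseudocounts of 0.1 and 5 only 2 of the 6 names remained in each case, Ndrg1 in both.

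**Figure D3:**
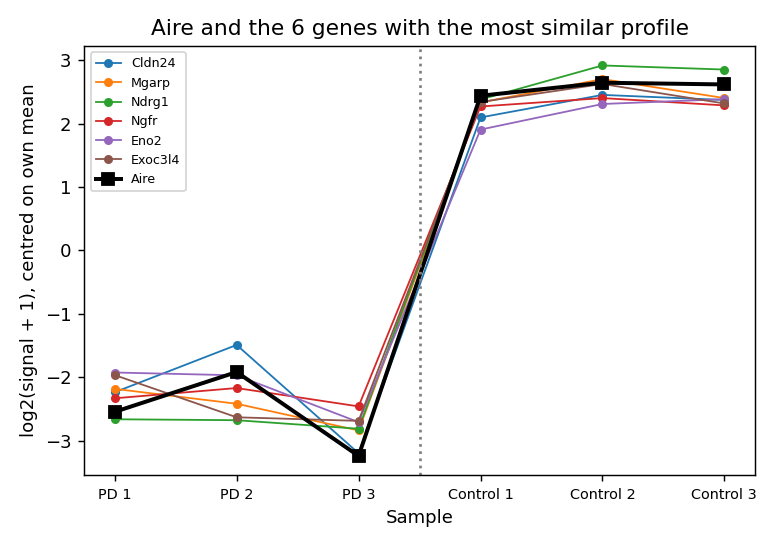
log2(signal + 1), centred on the mean of the gene, in PD replicates 1 to 3 and DMSO (Control) replicates 1 to 3 for Aire (black squares) and the 6 genes most like it. All 7 profiles separate the groups, and Aire, Cldn24 and Ngfr share a PD peak in replicate 2 and a low point in replicate 3.

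Genes around Aire did not share 1 direction. Of 22 protein coding genes with any part of the gene within 250 kb of Aire on either side, 6 are in the table, with 2 non-coding loci beside them. Of these 8, limma called 4 lower and 4 higher in PD organoids, against backgrounds of 51.1% of listed genes called lower and 44.5% called higher. The nearest listed gene on the same strand is Pfkl, which encodes the liver-type phosphofructokinase of glycolysis. It begins 19938 bases beyond the 3′ end of Aire, so Aire lies upstream of it. Pfkl was 46.44, 56.97 and 41.72 in PD organoids and 163.34, 170.02 and 157.81 in DMSO organoids, a log2 difference of -1.75 ± 0.11 by limma (SE), at an adjusted p of 6.29e-06.

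On the other side Icosl, which encodes the ligand of the T cell costimulatory receptor ICOS, starts 25.7 kb upstream of the Aire start site on the opposite strand. Icosl was 1.28, 1.13 and 1.12 in PD organoids and 7.32, 6.24 and 8.45 in DMSO organoids, with a log2 difference of -1.93 ± 0.14 by limma (SE), at an adjusted p of 1.22e-05. Pfkl and Icosl, the nearest listed genes on either side, both fell by less than the -5.14 of Aire. Their groups did not overlap, which held for 95.2% of all listed genes. Further out, the cation channel gene Trpm2 and Lrrc3 were called lower at -0.90 and -0.42, at DMSO means of 1.27 and 2.53. Cfap410, a cilium gene 65.1 kb downstream, was called higher at 0.88, as were Agpat3, an acyltransferase gene of phospholipid synthesis whose start site is 308.9 kb away, at 0.48 and the non-coding loci Gm30122 and Gm47976 at 0.85 and 0.93.

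**Figure D4:**
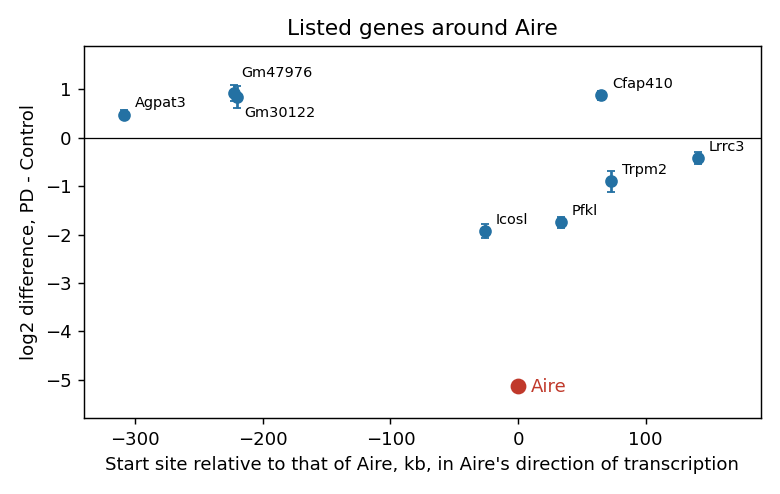
log2 difference on log2(signal + 1), PD minus Control (DMSO), of the 8 listed genes whose body reaches within 250 kb of Aire, against the distance of their start site from that of Aire; bars are SE and positive distances lie in the direction in which Aire is transcribed. Icosl at -1.93 and Pfkl at -1.75 are the nearest listed genes on either side of Aire at -5.14, whereas Cfap410, Agpat3, Gm30122 and Gm47976 lie above 0.

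The receptors and regulators that induce Aire in the thymus were mostly not analysed here: Tnfrsf11a, the gene of the receptor RANK, and Relb are among those without values. Of 32 genes of TNF receptor and NF-kB signalling 5 were in the table, 2 called higher and 3 called lower, with a median log2 difference of -0.83 beside -0.42 over all listed genes and 95.5% of them called. Tnfrsf11b, which encodes osteoprotegerin, the decoy that binds the RANK ligand, rose to 35.6 ± 1.18 in PD organoids, against 18.3 ± 2.26 in DMSO organoids (SD, n = 3 each). Chuk, which encodes the kinase IKK-alpha, also rose, at 0.80. Tnfrsf12a, a receptor gene of the TNF family, fell with a log2 difference of -1.16 and Tnfaip3, which encodes the NF-kB inhibitor A20, with -0.83. The transcription factor gene Irf8 was 0.03, 0.34 and 0 in PD organoids and 5.67, 5.5 and 5.15 in DMSO organoids, a log2 difference of -2.53 ± 0.14 by limma (SE), at an adjusted p of 4.11e-06. Irf8 was highest in PD replicate 2 and lowest in PD replicate 3, at values near 0. None of the other listed genes of this list had that order.

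Of 30 genes whose products are described as partners or cofactors of the Aire protein, 6 were listed, 2 called higher and 4 lower (median -0.71). Over all listed genes 44.5% were called higher and 51.1% lower, with a median of -0.42. Top2a, which encodes DNA topoisomerase II alpha and is also high in dividing cells, averaged 47.6 ± 7.22 in PD organoids and 220.1 ± 11.5 in DMSO organoids (SD, n = 3 each). The log2 differences of Jmjd6, a lysyl hydroxylase gene, Msh6, a mismatch repair gene, and Xrcc6, which encodes the DNA end-binding protein Ku70, were -1.18, -0.78 and -0.63. Hexim1, which encodes an inhibitor of the elongation factor P-TEFb, rose by 0.85 and Prkdc, the catalytic subunit gene of DNA-dependent protein kinase, by 0.54. Among relatives that carry a SAND or PHD domain, 3 of 9 were listed. Ski and Sp110 were called higher at 0.77 and 0.48, and Skil lower at -1.16. Sp110 did not exceed 0.74 in any sample.

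Markers of the thymic epithelium gave a mixed picture. Foxn1, Psmb11, Fezf2 and Cd80, which define thymic epithelial cells or their medullary subset, are not analysed here. Of 34 markers 12 were listed, 5 called higher and 7 lower (median -0.64), beside 44.5% and 51.1% of all listed genes (median -0.42). Of the 12, 4 are also on the list of otic and simple epithelium. The summed level of the 12 was 847 to 860 in the PD libraries and 1728 to 1861 in the DMSO libraries. The part of a thymus-like or other epithelial population in the Aire values was not tested.

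Less abundant thymic markers, named after their values were seen, also moved both ways. Plet1, an epithelial progenitor marker of the thymus, was 0, 0.06 and 0.19 in PD organoids and 14.31, 19.11 and 17.11 in DMSO organoids, a log2 difference of -4.04 ± 0.15 by limma (SE), at an adjusted p of 8.61e-07. Prss16, the gene of a thymus-specific serine protease, fell with a log2 difference of -1.71. In the opposite direction, Tbata, named for its expression in thymus, brain and testis, rose to 17.8 ± 2.60 in PD organoids, against 1.52 ± 0.241 in DMSO organoids, and Trpm5, a cation channel gene of taste and tuft cells, rose to 8.93 ± 0.593, against 0.973 ± 0.433 in DMSO organoids (SD, n = 3 each). Ly75, which encodes the endocytic receptor DEC-205, Cd83 and the peptidase gene Enpep rose by 1.47, 1.23 and 0.98.

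Antigen presentation genes numbered 5 of 25 in the table, 2 called higher and 3 lower (median -0.58). These counts are near the shares of all listed genes, 44.5% called higher and 51.1% lower (median -0.42). H2-K1, a class I heavy chain gene, averaged 107.7 ± 0.692 in PD organoids and 286 ± 8.38 in DMSO organoids (SD, n = 3 each), and Tap1, a peptide transporter gene, had a log2 difference of -0.58. Icosl, described above, is the third that fell. Tapbp, which encodes the class I loading factor tapasin, and H2-DMb1, a class II loading factor gene, rose by 0.89 and 0.60. Among leukocyte and antigen-presenting cell markers only Ptprc, the pan-leukocyte gene, was listed, out of 19. It stood at 0.21, 0.21 and 0.06 in PD organoids and at 0 in every DMSO sample. Its call (limma adjusted p = 0.0288) was lost without PD replicate 1, without PD replicate 2 and without any 1 of the DMSO replicates. The other markers of that list have no values here, and the part of leukocytes in the Aire values was not tested.

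Of 19 tissue-restricted genes of the kind that the thymic epithelium transcribes, 2 were listed and both called lower, where 51.1% of all listed genes were, and a count this small is not a result about the list. Apoa4, an intestinal apolipoprotein gene, was 1.65, 1.9 and 2.21 in PD organoids and 15.03, 13.90 and 17.02 in DMSO organoids. Gad1, which encodes the GABA-synthesising enzyme GAD67, averaged 0.0967 ± 0.0702 in PD organoids and 5.0 ± 1.55 in DMSO organoids (SD, n = 3 each). Of 17 genes of pluripotent and germ cells, where Aire transcripts are also described, only Klf2 was listed, and it rose by 2.21 on the log2 scale.

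The lists of ERK feedback genes and hypoxia-inducible genes each moved in a single direction, in a table selected for change where 51.1% of genes were called lower. The 2 listed tissue-restricted genes, described above, also both fell. All of these lists were chosen with earlier results of these data known, so their counts are not independent evidence. All 14 listed feedback genes of MEK and ERK signalling, of 16, were called lower with a median log2 difference of -2.21, among them Dusp6, a phosphatase gene that limits ERK, at 12.3 ± 1.33 in PD organoids and 150 ± 3.58 in DMSO organoids (SD, n = 3 each). All 26 listed hypoxia-inducible genes, of 27, were called lower with a median of -2.82. With a pseudocount of 1 only Ndrg1 among them had a larger log2 fall than Aire. With 0.1 Mgarp and Adm, both near 0 in PD organoids, fell further than Aire as well. Otic and simple epithelium markers gave 3 higher and 8 lower of 11 listed, from 22, with a median of -0.70. Across the 11 lists the largest log2 fall outside the hypoxia list was that of Plet1 at -4.04.

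**Figure D5:**
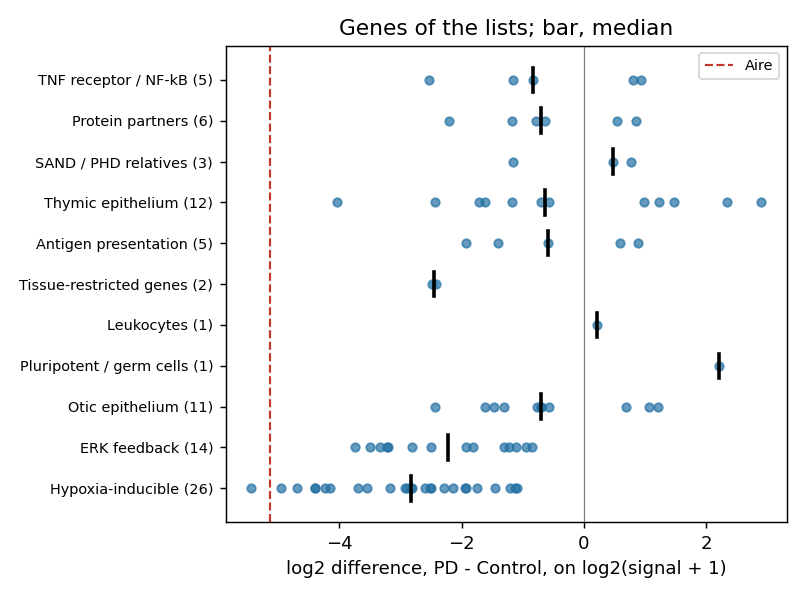
log2 difference on log2(signal + 1), PD minus Control (DMSO), of each listed gene in the 11 lists; black bars are medians, the dashed line is Aire at -5.14 and the number of listed genes stands in parentheses. Hypoxia-inducible genes (median -2.82), ERK feedback genes (median -2.21) and the 2 tissue-restricted genes (median -2.45) lie wholly below 0, whereas thymic epithelium markers lie on both sides.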

How the data were processed

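Trimmomatic, HISAT2, HTSeq, DESeq2 and the build mm10 are named per the submitters' processing notes. Their versions and roles, the annotation used and the strand setting are not stated there. For each gene the deposited table gives a normalized signal in every sample, to 2 decimals, the authors' mean of each group, their fold (a ratio of PD over control), its log2 value, and a p-value with its adjusted p-value, per the file headers. Of its identifiers 4989 were found in GENCODE M21 and 5 were not; 0 columns of per-sample values lacked a sample.

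A test on read counts was planned where counts were given. As the values are a normalized signal, limma 3.58.1 (R 4.3.3) was run with a trend on log2(signal + 1), without a filter, over all 6 samples and 4994 genes, and was tested on simulated data. Where a symbol had 2 rows, the higher was used in the lists. Copies were searched with blastn 2.17.0. Tables were handled with Python 3.11.15 and pandas 2.3.3.

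Aire and the 11 lists were chosen with earlier results of these data known. The naming rule covered the 2 genes on each side of Aire in the order of falls, the 6 most like it, listed genes within 250 kb, a few genes fixed by name, and up to 4 genes of highest mean per list (all, where 5 or fewer were listed). Not all of them are printed, and 1 gene of the lists is not reported here. Alternatives changed the pseudocount, scaling, filter, trend, block, window and samples.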

Additional observations from a re-analysis of the deposited data

How the results depend on the processing

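The log2 difference of Aire was -5.65 with a pseudocount of 0.1 and -4.01 with a pseudocount of 5, and leaving out each sample in turn gave -5.46 to -4.80; scaling to equal totals, quantile normalization, a filter and the replicate block moved it by less than the spread between replicates. Its rank among falls was 15 with a pseudocount of 0.1. Of the 6 genes most like Aire, 2 remained with a pseudocount of 0.1 and 2 with a pseudocount of 5. Replicate numbers did not pair the samples (correlations of same-numbered deviations -0.0318, -0.00522 and -0.00128), and with the replicate block 2217 genes were called higher and 2544 lower, against 2220 and 2550 without it. Calls of the leukocyte list, which is Ptprc alone, numbered 0 with a pseudocount of 5, with the filter and with the replicate block, and 0 to 1 when leaving out 1 sample. With the filter, which removes Sp110, 1 of the SAND and PHD relatives was called higher. Of 655 values of the 47 other genes under the naming rule, 648 kept their direction and their side of the threshold under the alternatives. Of the rest 0 reversed, and the 7 others were all of Ptprc. Genes printed beyond that rule, such as Plet1, Tbata and Oc90, are not in this count. Quantile normalization shifted the median of all genes by 0.11 on the log2 scale, to -0.31. A window of 500 kb added no listed gene. Depth is unknown, so values near 0 in PD organoids carry no counting limit.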
